A study of Homo sapiens with 6 samples.

Results

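The amino acid transporter genes SLC7A5, SLC3A2, SLC7A11, SLC1A5, SLC38A1 and SLC38A2 were followed through IGF2BP3 IR-PAR-CLIP libraries of HCT116, a human colorectal carcinoma cell line. These 6 genes were chosen by name, and a read cluster was taken as a site of a gene where 1 nt or more of it lay on a same-strand exon in GENCODE release 44. These were 548 of 244645 clusters, on 6 of 11988 genes with an exonic cluster. In all libraries the cells had been given 100 µM 4-thiouridine for 15 h and irradiated at 365 nm, and RNA was trimmed with RNase first in the lysate and again on the beads. The IGF2BP3 precipitates had received RNase I (0.05/0.05, 0.1/0.025 or 0.05/0.025, as in-lysate/on-beads concentration in U/µL) or RNase T1 (1/1 or 0.25/0.25), and the control precipitate with IgG had received RNase I (0.1/0.025). There was 1 library per condition, so intervals below cover counting error only and no difference between conditions was tested. For RNase I 0.05/0.05 and RNase T1 1/1 the RNA was electroeluted from the gel, and that of the other IGF2BP3 libraries is taken to come from crushed gel, so the effects of extraction and of concentration cannot be told apart between those groups. For the 0.1/0.025 library this is assumed, because the study's account of the extraction gives a different in-lysate concentration from the sample label. The antibody also recognizes the paralog IGF2BP2 in part, and no library measured transcript abundance, so more binding per transcript and more transcript cannot be told apart.

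Amino acid transporters of the SLC families supply growing cells with essential amino acids, glutamine and cystine. SLC7A5 (LAT1) exchanges large neutral amino acids such as leucine and works only with SLC3A2 (4F2hc, CD98hc), the heavy chain that carries it to the plasma membrane. SLC7A11 (xCT) shares the same heavy chain and imports cystine in exchange for glutamate, which feeds glutathione synthesis. SLC1A5 (ASCT2) exchanges glutamine and other neutral amino acids, and SLC38A1 (SNAT1) and SLC38A2 (SNAT2) take up glutamine and small neutral amino acids with sodium. SLC38A2, SLC7A5 and SLC7A11 are known targets of the amino acid response that runs through the transcription factor ATF4. IGF2BP3 is an oncofetal RNA-binding protein that binds mainly 3′UTRs and is known to affect the stability and translation of bound mRNAs.

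The stretches of mRNA on which these genes shared clusters among most libraries are printed here to place the sites. For 5 of the genes the sequence is the middle 30 nt of a stretch of at least 30 nt that lay under clusters of all 5 IGF2BP3 libraries, or of as many as could be had. Of these stretches the one whose clusters had the highest mean CPM was taken. Clusters were counted whole, so a long cluster raises every stretch under it. It is the GRCh38 sequence of the transcript strand, 5′ to 3′. Capitals mark 4 tetramers, searched on the transcript strand only. The first is CATT, the next is CATA, the third is CATC and the last is CAGT. They are written with U in RNA, and only CATC can share a letter, its last, with a following one. CATT, CATA and CATC are known as IGF2BP sequence elements. CAGT was the study's top motif in these same RNase I libraries and was not identified there with RNase T1.
SLC7A5, chr16:87830418-87830447, minus strand, 3′UTR, 5 libraries: acactccactgacaaacgtccccagcggtt
SLC3A2, chr11:62888755-62888784, plus strand, 3′UTR, 5 libraries: tttttctcttttttaaaaacaaacaaacaa
SLC38A1, chr12:46188704-46188733, minus strand, 3′UTR, 5 libraries: tCATAtttccCAGTacttttcacaatCATT
SLC38A2, chr12:46359933-46359962, minus strand, 3′UTR, 5 libraries: aatccacaggttacacctatgtttgatatg
SLC7A11, chr4:138165562-138165591, minus strand, 3′UTR, 3 RNase I libraries: actagaacttctcaaCATTtgggaactttg
The SLC7A11 stretch lay under no RNase T1 cluster. The SLC7A11 cluster with the most reads with RNase T1 1/1 (31 reads) and the single one with RNase T1 0.25/0.25 (4 reads) are therefore added over their whole length.
SLC7A11, chr4:138166873-138166898, minus strand, 3′UTR, RNase T1 1/1: gtcctttctacaacctCATAacaatg
SLC7A11, chr4:138171114-138171135, minus strand, 3′UTR, RNase T1 0.25/0.25: tttcactaataacttacccctg
Both end in G, the base after which RNase T1 cuts.

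These stretches began 2523 nt after the stop codon in SLC7A5, 62 nt in SLC3A2, 237 nt in SLC38A1, 1149 nt in SLC38A2 and 6365 nt in SLC7A11. The clusters over the SLC38A2 stretch held 1519 reads with RNase I 0.05/0.05, 156 with 0.1/0.025, 104 with 0.05/0.025, 118 with RNase T1 1/1 and 20 with RNase T1 0.25/0.25, and those over the SLC38A1 stretch 326, 84, 92, 205 and 25. Over the SLC7A5 stretch they held 518, 244, 203, 229 and 33 reads and over that of SLC3A2 82, 25, 26, 72 and 15. The clusters reach beyond the printed stretch, so these reads are not all on it. On GRCh38 the genes lie at chr16:87830023-87869507 (SLC7A5, minus strand, 10 exons), chr11:62856004-62888880 (SLC3A2, plus, 9), chr4:138164097-138242349 (SLC7A11, minus, 12), chr19:46774883-46788594 (SLC1A5, minus, 8), chr12:46183063-46270017 (SLC38A1, minus, 17) and chr12:46358188-46372773 (SLC38A2, minus, 16), with exons of the canonical transcript.

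The 6 genes had 35 such stretches under clusters of all 5 IGF2BP3 libraries, 18 on SLC38A2, 10 on SLC7A5, 6 on SLC38A1 and 1 on SLC3A2. CATT was in 31.4% of them, beside 31.1% of the 4121 stretches of the same length found in the same way over all protein-coding genes. CATA was in 17.1% beside 17.7%, CATC in 22.9% beside 20.3% and CAGT in 17.1% beside 14.3%. In their tetramers the shared stretches of the transporters were thus close to those of other genes.

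Depth is given as reads within clusters, since total sequenced reads were not used here, and was 2362467 with RNase I 0.05/0.05, 803490 with 0.1/0.025 and 670712 with 0.05/0.025, and for RNase T1 it was 1157194 with 1/1 and 182448 with 0.25/0.25. The IgG library held 324 reads in 25 clusters and none on the 6 genes. A count of 0 there allows 3 reads or a share of up to 0.926%, above the 0.396% to 0.425% of the IGF2BP3 libraries, so the share of these genes in IgG could not be resolved at this depth. As a check of the cell label, 6 of 7 epithelial marker genes had IGF2BP3 clusters (all but CDX1) and none of 5 markers of leukocytes, fibroblasts or endothelium had any, although the libraries measure bound RNA and not expression. Of all annotated protein-coding genes 53.3% had no IGF2BP3 cluster, so these few markers say little. No cluster lay antisense to a member, on the pseudogenes SLC7A5P1 and SLC7A5P2 or on the antisense genes SLC7A11-AS1 and SLC38A2-AS1, and no member cluster overlapped an exon of another gene. The member sites had no exact copy of 30 nt or more elsewhere on the main chromosomes.

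SLC38A2 carried the most IGF2BP3 reads of the 6 transporters and SLC7A11 the fewest for its length. Together the 6 genes held 4031 CPM (reads scaled to the cluster reads of the library) with RNase I 0.05/0.05, 3961 with 0.1/0.025, 3993 with 0.05/0.025, 4061 with RNase T1 1/1 and 4253 with RNase T1 0.25/0.25. This sum moved little between libraries, whereas the single genes moved by more. To compare genes, levels were divided by the length of the canonical mRNA. On this scale SLC38A2 had a median of 404 CPM per kb over the 5 libraries (range 348 to 460), SLC7A5 279 (176 to 296) and SLC38A1 96.4 (71.3 to 121). These ranges did not overlap with each other or with that of the next gene, and the order held in 5 of 5 libraries. SLC3A2 followed with 43.6 CPM per kb (27.7 to 52.3), SLC1A5 with 31.5 (0 to 33.9) and SLC7A11 with 4.26 (2.27 to 31.3). The last 3 genes overlapped in their ranges, and each was above the next in only 3 of 5 libraries. Among protein-coding genes with a cluster in the same library, SLC38A2 stood at the 97.1 to 99.5 percentile of CPM per kb and SLC7A5 at the 90.8 to 98.6, whereas SLC7A11 ranged from the 0.543 percentile with RNase T1 0.25/0.25 to the 74.4 with RNase T1 1/1.

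**Figure D1:**
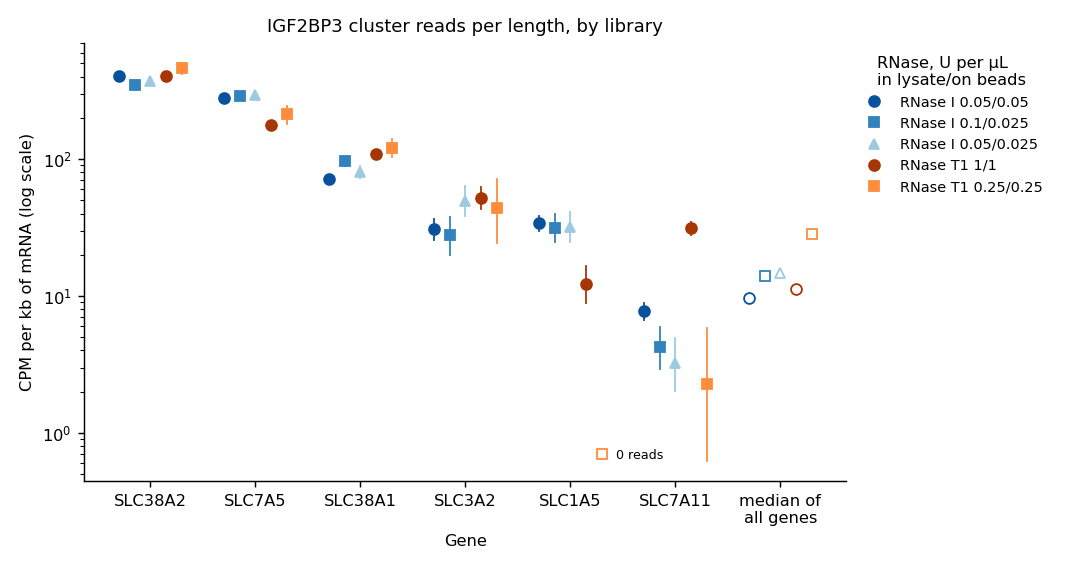
CPM per kb of canonical mRNA (log scale) of each gene in the 5 IGF2BP3 libraries, with exact Poisson 95% intervals as bars; open symbols at the right are the median over protein-coding genes with a cluster in the library, and the open square marked 0 reads is drawn at an arbitrary height. SLC38A2, SLC7A5 and SLC38A1 lie in separate ranges, while SLC7A11 with RNase T1 1/1 (31.3) stands above its other libraries.

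The light chain SLC7A5 and its heavy chain SLC3A2 were unlike in level. SLC7A5 had 2998, 1066 and 905 reads in the RNase I libraries (0.05/0.05, 0.1/0.025 and 0.05/0.025) and 929 and 176 in the RNase T1 libraries (1/1 and 0.25/0.25), or 1269, 1327, 1349, 803 and 965 CPM in this order. The 3 RNase I libraries lay close together, with overlapping counting intervals, and both RNase T1 libraries were lower. SLC3A2 had 137, 42, 63, 114 and 15 reads in the same order, or 58.0, 52.3, 93.9, 98.5 and 82.2 CPM. Here RNase T1 1/1 was highest, but the Poisson interval of RNase T1 0.25/0.25, 46.0 to 136 CPM, held the values of the other 4 libraries. SLC3A2 was also higher with RNase I 0.05/0.025 than with 0.1/0.025 (log2 ratio of 0.1/0.025 over 0.05/0.025 of -0.85, counting interval -1.41 to -0.28), and no member passed 2-fold in this comparison of in-lysate doses, in which 8.87% of 5503 genes were more than 2-fold higher and 6.34% more than 2-fold lower.

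SLC7A11, the cystine importer, varied most. It had 176, 33 and 21 reads in the RNase I libraries and 349 and 4 in the RNase T1 libraries, in the same order. In CPM these were 74.5 (interval 63.9 to 86.4), 41.1 (28.3 to 57.7), 31.3 (19.4 to 47.9), 302 (271 to 335) and 21.9 (5.97 to 56.1). RNase T1 1/1 stood apart from all other libraries, and the value with RNase I 0.05/0.05 lay above those of the other RNase I libraries. The 2 libraries that were high were the electroeluted and the deepest ones. SLC7A11 reads with RNase T1 1/1 were spread over 31 clusters, and scaled to the depth of RNase T1 0.25/0.25 its median cluster would hold 1.42 reads and its top cluster 4.89, while the smallest cluster called in that library had 2 reads. The part of depth and of gel extraction in this difference was not tested.

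Of the glutamine transporters, SLC38A2 and SLC38A1 had more CPM than SLC1A5 in every IGF2BP3 library. Per kb of mRNA the medians were 404 for SLC38A2, 96.4 for SLC38A1 and 31.5 for SLC1A5, so there the first 2 did not form a pair. SLC38A2 had 4617, 1342, 1190, 2239 and 402 reads in the order of the libraries above, or 1954, 1670, 1774, 1935 and 2203 CPM. SLC38A1 had 1364, 627, 437, 1027 and 179 reads, or 577, 780, 652, 887 and 981 CPM. SLC38A1 was thus higher in both RNase T1 libraries than in each RNase I library, although the interval with RNase I 0.1/0.025 (720 to 844 CPM) overlapped theirs, while for SLC38A2 the values of the enzymes were mixed in order. SLC1A5 had 231, 73, 62, 41 and 0 reads, or 97.8, 90.9, 92.4, 35.4 and 0 CPM. Its RNase I libraries were alike and its RNase T1 1/1 value had an interval of 25.4 to 48.1 CPM, below all of them. With RNase T1 0.25/0.25 a count of 0 allows up to 16.4 CPM (3 reads) by counting error, and reads too sparse to be called as clusters are not counted.

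A gene was called a target where 1 cluster or more passed both 10 CPM and 0.5 conversion events per read, a T-to-C conversion marking a crosslinked 4-thiouridine. All 6 genes were targets with RNase I 0.05/0.05, where 46.9% of 9353 protein-coding genes with any IGF2BP3 cluster were called, and with RNase I 0.1/0.025 (45.6% called). With RNase I 0.05/0.025 it was 5 of 6 (47.1% called), without SLC7A11. The top SLC7A11 cluster there had 8.95 CPM and 0.5 conversion events per read and so passed neither limit. The top one with over 0.5 events per read had 5 reads or 7.45 CPM. With RNase T1 1/1 it was 5 of 6 (42.1% called), without SLC3A2. Its top cluster there had 72 reads and 62.2 CPM but 0.36 conversion events per read, and its top cluster with over 0.5 events per read had 10 reads or 8.64 CPM. SLC3A2 was a target there too at 5 CPM, and also at 10 CPM relative to reads of clusters on protein-coding exons (10.3 CPM), and at 5 CPM SLC7A11 was one with RNase I 0.05/0.025. With RNase T1 0.25/0.25 it was 5 of 6 (29.3% called), without SLC1A5, which had no cluster. Some calls passed narrowly. For SLC7A11 the top passing cluster had 10.6 CPM with RNase I 0.05/0.05 and 11.2 CPM (9 reads) with 0.1/0.025. With RNase T1 0.25/0.25 it had 4 reads. For SLC1A5 with RNase T1 1/1 the top passing cluster had 11.2 CPM (13 reads). SLC7A5, SLC38A1 and SLC38A2 were targets in all 5 libraries, as were 21.2% of the 9353 genes. The criterion weighed libraries unequally, because 10 CPM corresponded to 23.6 reads with RNase I 0.05/0.05 but to 1.82 reads with RNase T1 0.25/0.25.

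Between the enzymes the transporters moved in both directions. In the electroeluted libraries the log2 ratio of CPM with RNase I 0.05/0.05 over RNase T1 1/1 was 1.46 for SLC1A5 (counting interval 0.99 to 1.94) and 0.66 for SLC7A5 (0.55 to 0.77). It was 0.01 for SLC38A2 (-0.06 to 0.09), -0.62 for SLC38A1 (-0.74 to -0.50), -0.76 for SLC3A2 (-1.12 to -0.41) and -2.02 for SLC7A11 (-2.28 to -1.76). SLC1A5 was thus 2.76-fold higher with RNase I, with an interval that reached just below 2-fold, as were 18.1% of 7106 genes by more than 2-fold, and SLC7A11 was 4.05-fold higher with RNase T1, with 18.5% of genes past 2-fold in that direction. The median over all genes was -0.05. When only clusters of more than 10 CPM were used, SLC1A5 fell within 2-fold (0.79) and SLC3A2 passed it (-1.27), while SLC7A11 reached -2.99.

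In the crushed-gel libraries, RNase I 0.1/0.025 over RNase T1 0.25/0.25, the log2 ratio was 0.46 for SLC7A5 (0.23 to 0.69), -0.33 for SLC38A1 (-0.57 to -0.09) and -0.40 for SLC38A2 (-0.56 to -0.24). SLC3A2 (-0.65, interval -1.50 to 0.20) and SLC7A11 (0.91, -0.59 to 2.40) rested on 15 and 4 RNase T1 reads, and their intervals held 0. None of the 5 genes with reads in both libraries passed 2-fold, where 17.4% of 3275 genes were higher and 11.9% lower. With RNase I 0.05/0.025 over the same RNase T1 library the ratios were 0.48 for SLC7A5, 0.19 for SLC3A2, 0.51 for SLC7A11, -0.59 for SLC38A1 and -0.31 for SLC38A2, again with 0 past 2-fold (16.9% of 3227 genes higher, 13.9% lower). SLC3A2 thus changed sign with the choice of the RNase I library. SLC1A5 had no read in RNase T1 0.25/0.25 clusters and so no ratio. Its level was 5.53 times a limit of 3 reads with RNase I 0.1/0.025 and 5.62 times with 0.05/0.025. These are not lower bounds, because reads too sparse to be called as clusters are not counted. Scaled to the depth of RNase T1 0.25/0.25, its RNase T1 1/1 clusters would hold 6.46 reads, with 3.31 in the top cluster. The smallest cluster called with RNase T1 0.25/0.25 had 2 reads. SLC7A5 was thus higher with RNase I, and SLC38A1 higher with RNase T1, in all 3 pairs of libraries. The crushed-gel pairs share the same RNase T1 library and so are not independent of each other. SLC1A5 was higher with RNase I in the electroeluted pair, and it had no RNase T1 cluster in the crushed-gel pairs. SLC7A11 moved most between the electroeluted and the crushed-gel pairs, which rests on the 4 reads.

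**Figure D2:**
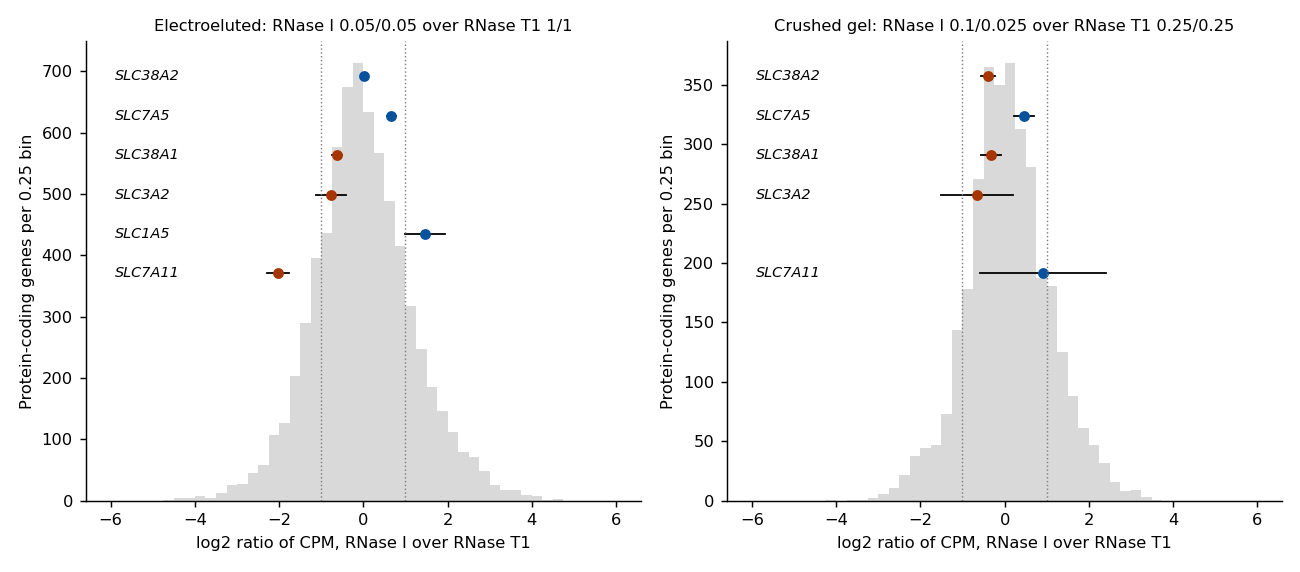
Log2 ratio of CPM, RNase I over RNase T1, in the electroeluted pair (left) and the crushed-gel pair (right). Points are the genes with 95% counting intervals as bars, blue above and brown below 0, grey bars are protein-coding genes with clusters in both libraries and dotted lines mark 2-fold. On the left SLC7A11 (-2.02) and SLC1A5 (1.46) lie outside the lines, and on the right none of the 5 plotted does. SLC1A5 is not plotted on the right, where it had 73 reads with RNase I and 0 with RNase T1.

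The 3′UTRs of the 6 genes differed in base composition. Those of SLC7A5 and SLC1A5 had 28.4% G each, and those of SLC38A1, SLC38A2, SLC7A11 and SLC3A2 had 20.3%, 17.9%, 17.5% and 15.0%. Among the latter 4 genes the G content and the electroeluted ratio were not in the same order. RNase T1 cuts after G and RNase I after any base. Across 4938 protein-coding genes with at least 20 reads in both electroeluted libraries and a 3′UTR of at least 100 nt, Spearman's rho between the G content and the log2 ratio was 0.472, and with the T content it was -0.408. In the crushed-gel pair, over 1547 genes, these were 0.276 and -0.242. All genes share the same 2 libraries in each pair, and the part of base composition in the members' ratios was not tested.

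Most reads lay in clusters that touched the 3′UTR, but the members differed in how far binding reached into the coding sequence. Of the SLC7A11 reads 72.7% to 100.0% lay in clusters that touched the 3′UTR, of SLC7A5 83.0% to 92.0% and of SLC38A1 78.7% to 89.9%. For SLC38A2 it was 62.2% to 77.4%. SLC1A5 had 51.1%, 49.3% and 56.5% in the RNase I libraries but 82.9% in RNase T1 1/1. SLC3A2 had 59.9%, 73.8% and 52.4% in the RNase I libraries but 93.9% and 100.0% in those of RNase T1. In these 2 genes the 3′UTR share was thus lowest with RNase I, although that of SLC1A5 with RNase T1 1/1 rests on 41 reads in 3 clusters. The median share over protein-coding genes was 91.9%, 98.5% and 97.8% in the RNase I libraries and 100% in those of RNase T1. It too was higher with RNase T1. SLC38A2, SLC7A5 and SLC38A1 lay below this median in all 5 libraries. Long clusters across the stop codon count for the 3′UTR here, and when they were given to the coding sequence the share of SLC7A5 with RNase I 0.05/0.05 was 42.2% in place of 86.4% and that of SLC3A2 with RNase I was 0, 14.3% and 11.1%. That of SLC1A5 with RNase I 0.05/0.05 was 36.8%, and that of SLC38A2 51.5% to 69.1% over the 5 libraries. Both have short 3′UTRs, 627 nt in SLC1A5 and 167 nt in SLC3A2, against 2923 nt in SLC38A2, 2947 nt in SLC7A5, 5907 nt in SLC38A1 and 7859 nt in SLC7A11. In SLC3A2 most RNase T1 reads fell on the middle 20% of this 3′UTR (53.8% with 1/1 and 75.6% with 0.25/0.25, reads spread evenly over each cluster), which overlaps the stretch printed for this gene.

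Clusters that ran across the stop codon were found in SLC7A5, SLC3A2, SLC1A5 and SLC38A2 with RNase I 0.05/0.05, where 22% of genes with a cluster had such a cluster. With RNase I 0.1/0.025 they were found in SLC7A5, SLC3A2 and SLC38A2 (12.6% of genes), and with RNase I 0.05/0.025 in SLC3A2 and SLC38A2 (12.5%). SLC7A5 also had one with RNase T1 1/1 (32 reads). SLC38A2 had them in all 5 libraries, including RNase T1 1/1 (184 reads), where 4.72% of genes did, and RNase T1 0.25/0.25 (24 reads), where 2.87% did. SLC38A1 and SLC7A11 had none in any library. Coding sequence was covered over 83.4% of its length in SLC38A2 with RNase I 0.05/0.05 and over 46.1% with RNase T1 1/1, beside 5.64% and 0 in SLC7A11. SLC38A2 had 5 regions wholly within the coding sequence with clusters in all 5 libraries, SLC7A5 had 2 and SLC38A1 had 1. Reads in 5′UTRs were few, with 29 in SLC1A5 (RNase I 0.05/0.05), at most 15 in any library of SLC38A1 and at most 12 in SLC38A2.

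**Figure D3:**
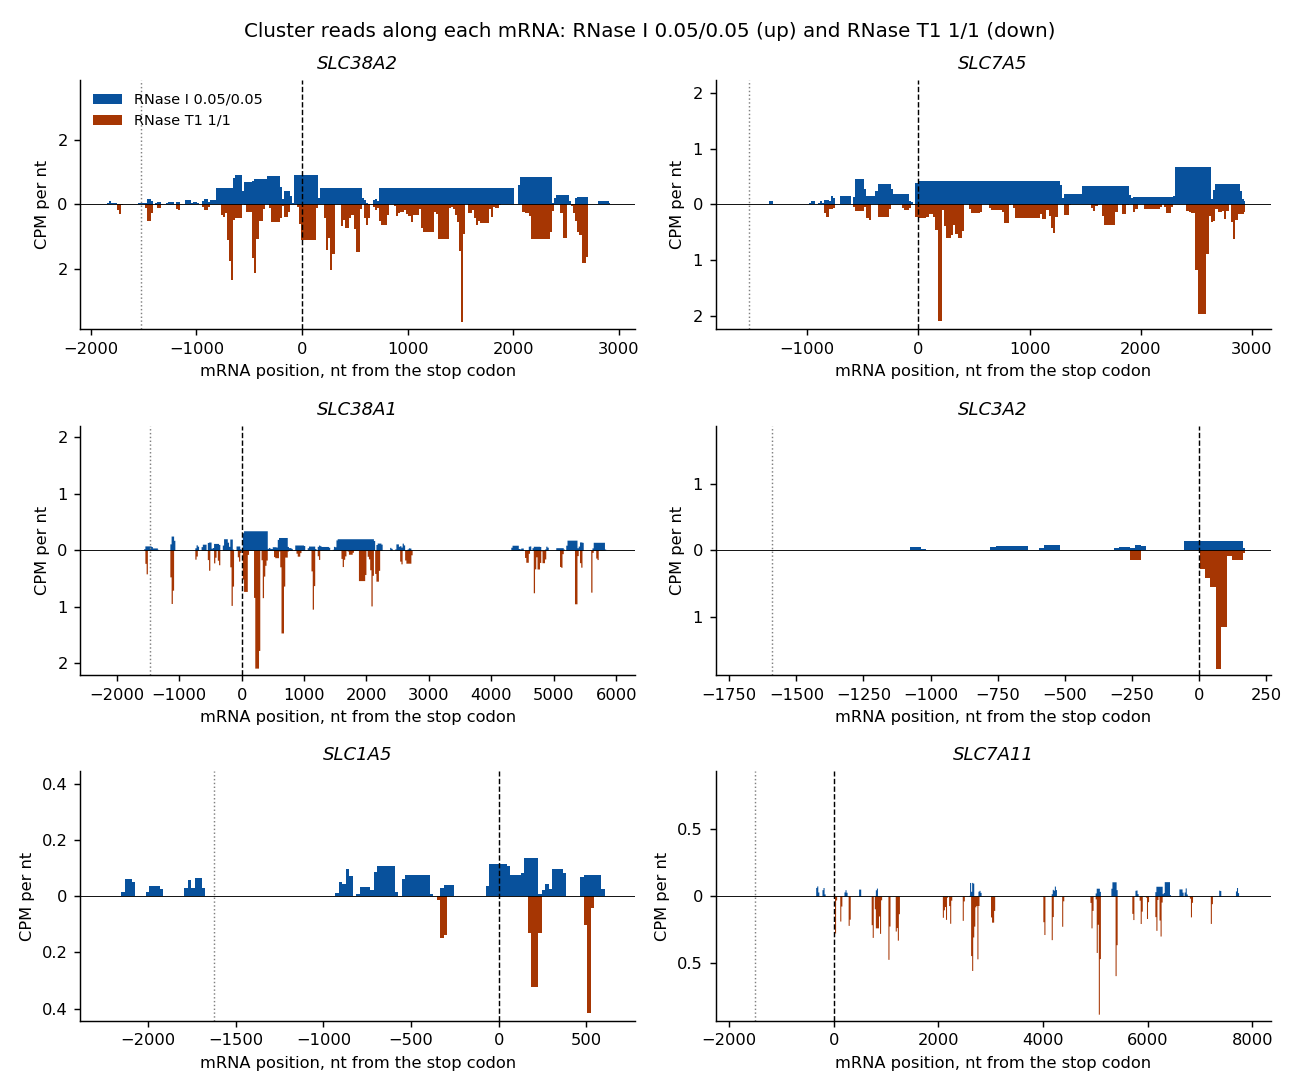
CPM per nt in 20-nt bins along each canonical mRNA, RNase I 0.05/0.05 upward and RNase T1 1/1 downward, reads spread evenly over each cluster. The x axis is the distance from the stop codon (dashed line) in nt, the dotted line marks the start codon and y axes differ between genes. RNase I gives long blocks, one of 1314 nt in SLC7A5 and one of 1281 nt in SLC38A2, where RNase T1 gives narrow peaks.

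Within the 3′UTR, reads were unevenly placed. When the 3′UTR was cut into 5 equal parts of 20%, SLC38A1 had between 43.2% and 56.5% of its 3′UTR reads in the first and at most 4.89% in the middle part in all 5 libraries. SLC7A5 was high at both ends, with 23.2% to 37.0% in the first and 25.8% to 38.3% in the last part, and low in the part before the last (0.409% to 11.6%). For SLC7A11 the part before the last held the most reads in both electroeluted libraries (39.5% with RNase I 0.05/0.05, 34.1% with RNase T1 1/1). The end parts differed between them. With RNase T1 1/1, 28.9% of its 3′UTR reads were in the first part and 3.15% in the last, whereas with RNase I 0.05/0.05 these were 9.26% and 31.5%. With RNase I 0.1/0.025 and 0.05/0.025 they were 0 and 48.1% or 71.4%, from only 24 and 21 3′UTR reads.

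The median cluster of the 6 genes was 69, 62 and 65 nt long with RNase I 0.05/0.05, 0.1/0.025 and 0.05/0.025 and 39 and 41 nt with RNase T1 1/1 and 0.25/0.25. Those of all genes were shorter, at 54, 53, 52, 33 and 37 nt. The last base was G in 14.9%, 12.8% and 18.8% of member clusters with RNase I and in 97.5% (Wilson interval 93.6% to 99.0%) and 86.7% (75.8% to 93.1%) with RNase T1. Over all clusters of each library it was G in 12.95%, 12.24%, 11.84%, 94.66% and 91.72%, in the same order. The Wilson intervals of the members held these values except with RNase I 0.05/0.025 (12.39% to 27.52%). The 3′UTR of SLC3A2 was covered over 100.0% with RNase I 0.05/0.05 and 85.6% with RNase T1 1/1, that of SLC7A5 over 98.2% and 65.2% and that of SLC38A2 over 89.5% and 62.3%. For SLC1A5 it was 74.0% and 13.2%, and for SLC38A1 52.6% and 24.2%. SLC7A11, at 12.1% and 12.3%, was the only member not covered more broadly with RNase I, and 94.7% of 6288 genes with 3′UTR clusters in both libraries were. From clusters of more than 10 CPM the difference between these libraries was 11 in place of 60.8 percentage points in SLC1A5, 15.1 in place of 28.4 in SLC38A1 and 48.5 in place of 14.4 in SLC3A2. In the crushed-gel pair 5 of 5 members with clusters in both had more of the 3′UTR covered with RNase I 0.1/0.025 than with RNase T1 0.25/0.25, as had 98.3% of 2949 genes, and 5 of 5 also with RNase I 0.05/0.025 (97.3% of 2887 genes). The depths differed in the same direction. Between the RNase I doses 6 of 6 members had more covered with 0.1/0.025 than with 0.05/0.025, as had 68.4% of 4830 genes.

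**Figure D4:**
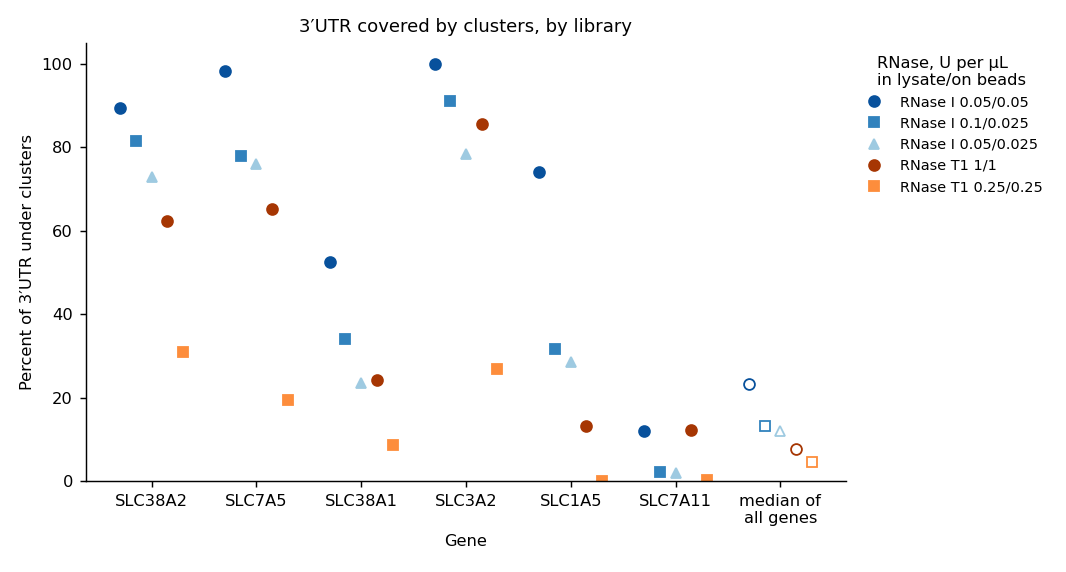
Percent of the canonical 3′UTR under clusters for each gene in the 5 IGF2BP3 libraries; open symbols at the right are medians over protein-coding genes. In SLC7A5, SLC38A2, SLC3A2, SLC1A5 and SLC38A1 the RNase I 0.05/0.05 library is highest, and in SLC7A11 it is level with RNase T1 1/1 at about 12%.

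Merging overlapping clusters of the 5 IGF2BP3 libraries gave 134 regions on the 6 genes, of which 22 (16.4%) had a cluster in all 5, beside 6.68% of 79860 regions on exons of protein-coding genes. These 22 held 85.6% of the member reads. SLC38A2 had 9 such regions of 25, SLC38A1 7 of 33, SLC7A5 5 of 12 and SLC3A2 1 of 6. SLC7A11 had 0 of 43 and SLC1A5 0 of 15. Of the SLC7A11 regions 34 were in a single library, 23 of them in RNase T1 1/1 and 10 in RNase I 0.05/0.05.

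The strongest shared region of SLC38A2 spanned 1282 nt of the 3′UTR (chr12:46359102-46360383) with 1519, 371, 300, 687 and 98 reads. That of SLC7A5 ran from 26 nt before the end of the stop codon over 1287 nt of the 3′UTR (chr16:87831683-87832996) with 1326, 499, 403, 429 and 72 reads. That of SLC38A1 covered 402 nt from position 13 of the 3′UTR (chr12:46188556-46188957) with 326, 177, 142, 313 and 69 reads. The single shared region of SLC3A2 (chr11:62888636-62888875) began in the coding sequence and took in the whole 3′UTR, with 82, 31, 33, 107 and 15 reads. In each of these 4 genes the region with the most reads thus had a cluster in every library. Regions join all overlapping clusters and the long ones can hold separate sites, so this does not show a common site. The best shared region of SLC1A5, in the 3′UTR, had 29, 22, 15 and 21 reads in 4 libraries, and that of SLC7A11 (chr4:138165651-138165813) had 23, 10, 6 and 22 reads in the same 4.

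Crosslinking was measured as T-to-C conversion events per read. SLC38A2 had 0.64, 0.67, 0.61, 0.55 and 0.54 in the library order used above. SLC7A5 had 0.66, 0.64, 0.63, 0.53 and 0.54, and SLC38A1 0.66, 0.66, 0.56, 0.50 and 0.56. The medians over genes with at least 20 reads were 0.640, 0.654, 0.617, 0.523 and 0.559, so these 3 genes followed the libraries. SLC3A2 had 0.74, 0.71, 0.59, 0.46 and 0.67, SLC1A5 0.65, 0.78, 0.56 and 0.59 in the 4 libraries in which it had reads, and SLC7A11 0.57, 0.55, 0.57, 0.55 and 0.75, the last from 4 reads. Among genes with at least 20 reads, SLC7A11 was at the 11.5, 5.92, 25.0 and 60.4 percentile in the first 4 libraries. SLC3A2 was there at the 92.6, 80.3, 33.8 and 22.9 and SLC1A5 at the 57.3, 95, 22.6 and 74.5, so none of these genes kept 1 place among the others. The members were lower with RNase T1 1/1 than with RNase I 0.05/0.05, as was the median of all genes. For SLC7A11 these 2 values were close, and for SLC1A5 the value with RNase T1 1/1 rests on 41 reads. The share of all genes that were lower was not counted.

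**Figure D5:**
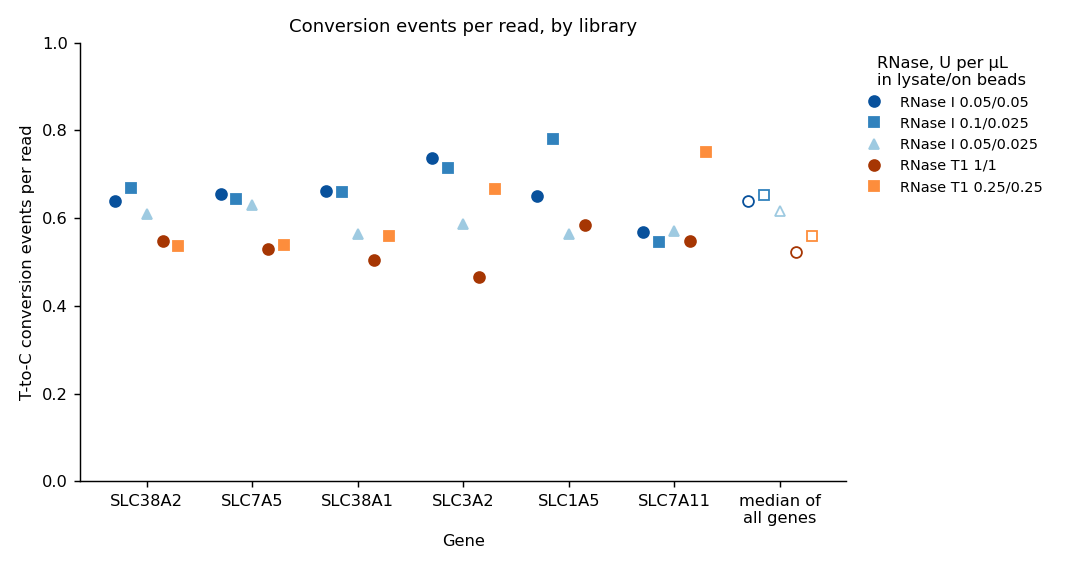
T-to-C conversion events per read of each gene in the 5 IGF2BP3 libraries, summed over its clusters; open symbols at the right are medians over genes with at least 20 reads. Values of SLC38A2, SLC7A5 and SLC38A1 lie between 0.50 and 0.67, and those of SLC3A2, SLC1A5 and SLC7A11, which rest on fewer reads, spread from 0.46 to 0.78.

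T positions with a conversion were counted under the clusters of each gene. In SLC7A5, 600 of 856 T under clusters with RNase I 0.05/0.05 had at least 1 (70.1%) and in SLC38A2 900 of 1374 (65.5%), with 0.798 and 1.14 reads per covered nt. In SLC38A1 it was 40.6%, in SLC3A2 39.5%, in SLC1A5 36.1% and in SLC7A11 24.3%, at 0.352, 0.227, 0.183 and 0.170 reads per nt. Over all clusters of that library the values were 36.5% and 0.353 reads per nt. With RNase T1 1/1 the order differed. SLC3A2 had a conversion at 52.0% of its T at 0.708 reads per nt, SLC1A5 at 46.7% (0.331), SLC38A2 at 45.5% (0.876), SLC38A1 at 41.7% (0.609), SLC7A5 at 39.6% (0.396) and SLC7A11 at 31.8% (0.362).

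Of 44 other amino acid transporters 30 had no IGF2BP3 cluster, beside 53.3% of all annotated protein-coding genes. Of the 44, 6 were targets with RNase I 0.05/0.05, where 21.9% of all 20046 annotated protein-coding genes were called, 3 with 0.1/0.025 (21.3% called), 4 with 0.05/0.025 (22% called), 7 with RNase T1 1/1 (19.6% called) and 2 with RNase T1 0.25/0.25 (13.7% called). Only SLC7A1, a carrier of cationic amino acids, was a target in all 5, with 850, 829, 781, 711 and 581 CPM. Next by mean CPM were SLC6A6 (taurine, mean 112), SLC7A6 (84.2) and SLC38A7 (20.1).

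Of 23 genes of amino acid stress and use, all but 1 had an IGF2BP3 cluster. In the 5 libraries in the order above 14, 13, 15, 11 and 10 of them were targets. Of protein-coding genes with any IGF2BP3 cluster 46.9%, 45.6%, 47.1%, 42.1% and 29.3% were called. Of the 23 genes 8 were targets in all 5, as were 21.2% of genes with a cluster and 9.91% of annotated genes, and 7 in none. The highest were MTHFD2, an enzyme of mitochondrial folate metabolism, at a mean of 871 CPM, NFE2L2, the transcription factor of the oxidative stress response, at 439, ATF4 at 321 and the serine synthesis enzyme PSAT1 at 269. ATF4 had 257, 444, 474, 130 and 301 CPM in the same order.

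Over the 5 libraries, the genes whose log2(CPM + 1) lay nearest to each member, among 3162 protein-coding genes with clusters in all 5, were SCD and MBNL1 for SLC38A2 (Euclidean distance 0.23 and 0.32), TMEM123 and ZNF664 for SLC38A1 (0.29 and 0.34) and B4GALT5 for SLC7A5 (0.39). For SLC3A2 they were SEPHS1 and SMARCA5 (0.42 and 0.53) and for SLC7A11 SPRYD7 and RAB11FIP2 (0.81 and 1.01). SPRYD7 had 64.3, 42.3, 32.8, 207 and 32.9 CPM and so shared the high value with RNase T1 1/1. For SLC1A5 the nearest were RRAS and CUL1, at 3.94 and 4.24, and no gene compared had a value of 0.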

How the data were processed

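IR-PAR-CLIP clusters of 6 HCT116 libraries were analysed. Per the study's methods the authors removed duplicates by unique molecular identifiers (UMI-tools 1.1.1), trimmed with Trimmomatic 0.30, aligned to GRCh38 with Bowtie 0.12.7, which does not align reads across splice junctions, and ran PARalyzer on each library to call clusters. The deposited numbers are counts of reads and of conversion events per cluster, not normalized; the deposited mode score, a fraction, was not used. CPM are relative to the cluster reads of the library, which are fewer than the reads sequenced and stand for depth in the report. Features were those of the Ensembl canonical transcript, a cluster on several features going to the 3′UTR first, then coding sequence, then 5′UTR. The longest overhang of a member cluster past its exons was 10 nt, and 548 of 548 sequences equalled GRCh38. Ratios carry counting errors. Members, gene lists and settings were chosen with earlier results of these data known. Named genes were the 6 members, the 4 highest of each list by mean CPM, the 2 nearest genes per member and pseudogenes and antisense genes. A sequence of SLC1A5 and 1 gene near SLC7A5 are not reported here. Scripts (Python 3.11.15, pandas 2.3.3, pysam 0.24.0, blastn 2.17.0) were tested on simulated data.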

Additional observations from a re-analysis of the deposited data

Results flagged for a closer look

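The log2 ratio of RNase I over RNase T1 had opposite signs in the electroeluted and the crushed-gel pair for 2 genes. For SLC7A11 it was -2.02 and 0.91, a difference of 2.92, with 349 and 4 RNase T1 reads. For SLC38A2 it was 0.01 and -0.40, a difference of -0.41, and the counting interval of the first held 0. Neither difference was tested, and enzyme concentration, gel extraction and depth differ between the pairs and cannot be told apart.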

How the results depend on the processing

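With 1 library per condition no library could be left out. No paired analysis was possible because no condition had a replicate. The number of members called targets depended most on the conversion criterion: above 0.75 events per read it was 3 in all libraries but RNase I 0.1/0.025. It was also 3 with RNase T1 1/1 at 20 CPM and 3 with RNase T1 0.25/0.25 when at least 20 reads were asked. With RNase I 0.05/0.05 it was 4 at 20 CPM. Relative to reads of clusters on protein-coding exons, the summed level of the 6 genes was 4753, 4683, 4794, 4835 and 5098 CPM in the order of the report. With the coding sequence first, the 3′UTR share of all member reads was 57.6% in place of 77.8% with RNase I 0.05/0.05, 70.1% in place of 76.2% with RNase I 0.1/0.025, 67.0% in place of 72.8% with RNase I 0.05/0.025 and 79.5% in place of 84.1% with RNase T1 1/1. The median over clusters gave 0.57 conversion events per read with RNase T1 1/1 in place of 0.53. From clusters of more than 10 CPM, 19 of 75 regions were shared by all 5 IGF2BP3 libraries in place of 22 of 134. Of the alternatives for summary values 53 stayed within counting error or, for counts of genes, within 1.5 times and 16 moved further, and of those for the ratios of single genes 16 stayed within the counting interval and 6 moved. Of those for the 3′UTR coverage of single genes 2 stayed within 5 percentage points and 4 moved. Some of the 53 for summary values could not move. No member cluster overlapped another gene's exon, and asking for more of a cluster to lie within exons removed none. The IgG library held no read on the members. The 53 is therefore not a measure of how stable the values were. Only the electroeluted ratios of SLC7A11 and SLC1A5 were past 2-fold, and neither turned its direction under the alternatives tried. Subtracting the all-gene median of -0.05 could not have turned them. From clusters of more than 10 CPM, SLC1A5 fell within 2-fold (0.79). Values of SLC7A11, SLC1A5 and SLC3A2 rest on few reads, in RNase T1 0.25/0.25 on 4, 0 and 15.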

Other observations

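Outside exons, SLC38A1 had 2 intronic clusters, both in the RNase T1 1/1 library, of 34 nt with 9 reads and 3 conversion events (chr12:46189516-46189549) and of 24 nt with 5 reads and 4 conversion events (chr12:46191688-46191711). The other 5 genes had none.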
